A study of Mus musculus with 12 samples.

Results

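Genes of the skeletal muscle triad and of store-operated calcium entry were followed in the tibialis anterior of Smyd1 conditional knockout mice. They were the 10 symbols Jph1, Jph2, Trdn, Asph, Jsrp1, Sypl2, Hrc, Srl, Stim1 and Orai1, chosen by name for their place in the triad, out of 23923 genes in the files. All 10 were listed in each of the 12 libraries, and all 10 were above the low-value limit used for testing (at least 0.1 FPKM in at least 6 libraries), as were 12695 genes in all.

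The muscle came from 12 mice aged 6 weeks of strain C57BL6/J;129S1/SvImJ, with 1 library per mouse. The paper states that its experiments after the histology of both sexes used male tissue only. The 6 controls were Myf6 cre/+; Smyd1 flox/+ and so kept a wild-type Smyd1 allele, whereas the 6 conditional knockouts (CKO) were Myf6 cre/+; Smyd1 flox/-. Both groups carried the Myf6 cre allele, which drives recombination in differentiated myofibers, and the methods add a Rosa26 YFP reporter allele in both. SMYD1 is a muscle-restricted lysine methyltransferase, and the comparison asks how the mRNA of the calcium release machinery differs when myofibers lack it.

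At the triad, a transverse tubule is held between terminal cisternae of the sarcoplasmic reticulum (SR), so that the voltage sensor of the tubule can open the ryanodine receptor of the SR. Junctophilins bridge the membranes, while triadin, junctin and JP-45 tie the release channel, calsequestrin and the voltage sensor together. When the SR is emptied, STIM1 in its membrane senses the loss of calcium and opens the ORAI1 channel of the tubule, a route called store-operated calcium entry that fast fibers use to refill their stores.

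The mouse promoter windows in the RefSeq table (GRCm38.p6, 250 bases before to 50 after the start) covered 5 of the 10 genes, Jph2, Sypl2, Hrc, Stim1 and Orai1. They were searched on both strands for the letters CAGCTG, an E-box read by myogenic basic helix-loop-helix factors, which reads the same on either strand. The match is shown because 4 of the 5 genes held it and Stim1 did not. Of all 32851 windows, 16.3% held it, which is a share of windows and not of genes. Since the letters were picked for their match in these genes, the shares cannot tell whether the E-box is more frequent among them. This was not tested, and the rest of the 10 genes had no window to search. The choice of these letters was made after the expression values were seen. Each line gives 30 bases, 5′ to 3′ on the strand of the gene, with the E-box in capitals.
Jph2 (chr2:163397994-163398023, minus strand): agggctggagaaggggcggggCAGCTGgga
Sypl2 (chr3:108226820-108226849, minus strand): tggcgttgaagCAGCTGggctgttctagtg
Hrc (chr7:45335235-45335264, plus strand): gaaccagggtcaCAGCTGcaaaggggacat
Orai1 (chr5:123014824-123014853, plus strand): ggagCAGCTGcaaagagaagcgaggcctga
The E-box began 9 or 29 bases before Jph2, for which the table lists a pair of starts, 22 before the start of Hrc, 239 before that of Sypl2 and 246 before that of Orai1. A match of letters is not a binding site, and no binding was measured in these libraries.

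The values are FPKM, in which the fragments of a gene are divided by its transcript length and by the size of the library, so levels can be set side by side between genes. The libraries hold no read counts, and their depth in reads is unknown. Relative depth was taken as the most common ratio of control 1 to each library, over genes below 0.15 FPKM in both. It ran from 1 to 1.54 in controls and from 0.986 to 1.77 in CKOs, with control 1 at 1. Markers of muscle fibers (8 of 8 detected) summed to 17110 to 26250 FPKM in controls and 20030 to 24450 FPKM in CKOs. All 12 libraries were thus skeletal muscle, but these markers do not tell the tibialis anterior from other muscles. In a whole muscle, fewer cells of a type and less RNA per cell cannot be told apart. Some libraries stood apart. The 6 slow-twitch fiber markers, all detected, summed to 14.1 to 46.0 FPKM in controls but to 126, 75.0 and 271 FPKM in CKO 1, CKO 3 and CKO 6, while the other CKOs lay between 20.2 and 27.2. The 5 fibroblast markers, all detected, reached 680 FPKM in control 1, whereas the other controls lay between 177 and 224 and the CKOs between 243 and 404. The 4 adipocyte markers, all detected, summed to 0.698 to 2.38 FPKM in controls and 1.89 to 6.46 in CKOs. The part of these shifts in the results was not tested, and values without CKO 1, CKO 3 and CKO 6 or without control 1 are given beside several of the results. Smyd1 itself lay between 32.9 and 47.1 FPKM in controls and between 27.8 and 39.9 in CKOs (log2 difference -0.13 ± 0.12 (SE), limma adjusted p = 0.545). After median-ratio scaling, which sets the typical gene equal in every library, 5 of 6 CKOs lay below every control, and the difference was -0.32 ± 0.08 (limma unadjusted p = 0.00181, adjusted p = 0.0797, exact permutation p = 0.00433). The FPKM is a single value for the whole gene, and the sources used here do not say which exons the floxed allele loses. It therefore does not check the genotypes. By western blot, the paper could not detect SMYD1 protein in the tibialis anterior of CKOs.

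Across all genes tested, the deposited values were shifted upward in CKOs, with a median log2 difference of 0.18 and 77.9% of genes above 0. Median-ratio scaling brought this median to 0.01. Differences are therefore given in both scales. Against this background the 10 genes had a median log2 difference of 0.08 as deposited, with 8 of 10 above 0, and of -0.11 after scaling, with 2 of 10 above 0.

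In controls, the triad genes were among the most abundant messages of the muscle, and Orai1 was not. Trdn had the highest mean level (171 ± 23.0 FPKM (SD, n = 6)), above that of 99.5% of tested genes. Hrc (141.5 ± 8.39) and Srl (139 ± 15.8) followed, and their ranges overlapped with each other. Hrc also overlapped with Trdn, although Trdn was the higher of the pair in 6 of 6 controls. Asph (62.6 ± 13.5), Jph1 (45.8 ± 3.83), Jsrp1 (32.0 ± 3.42), Sypl2 (28.7 ± 3.17) and Jph2 (19.6 ± 1.70) came next, with only Jsrp1 and Sypl2 overlapping. Stim1 (13.9 ± 0.685) lay below all of these, and Orai1 (1.65 ± 0.401) was lowest, above only 51.9% of tested genes. The order of the means was the same in CKOs, but every pair of neighbours overlapped there except Srl with Asph and Stim1 with Orai1.

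**Figure D1:**
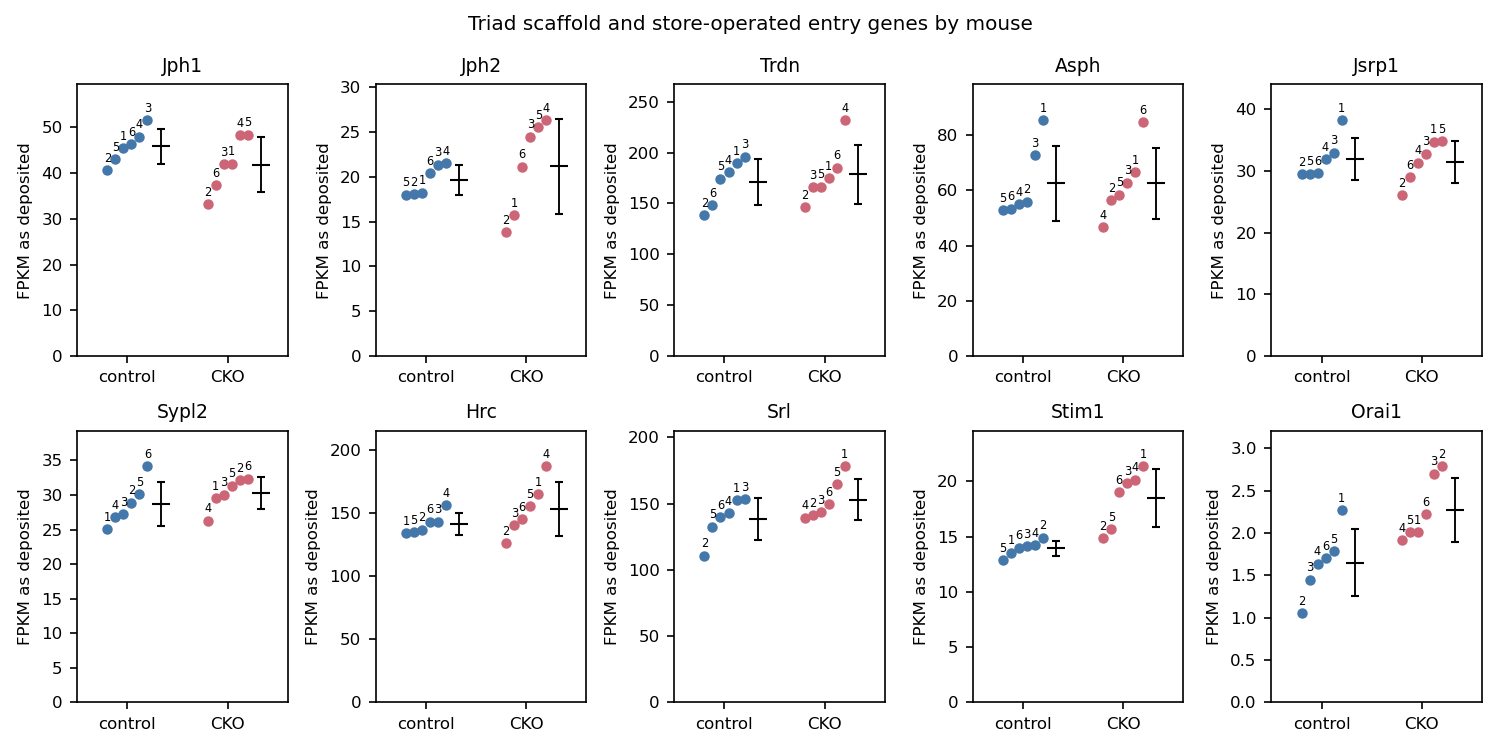
FPKM as deposited of the 10 genes in each mouse, with controls in blue, CKOs in red, the replicate number beside each point and the mean ± SD (n = 6) at the right of each group. Stim1 showed 5 of 6 CKOs above every control, and Jph2 showed 3 CKOs above and 2 below every control.

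None of the 10 genes passed an adjusted p below 0.05 in either scale, where 2.02% of all tested genes were called higher and 0.268% lower as deposited, and 0.764% and 0.709% after scaling. At an unadjusted p below 0.05, 2 of 10 (Stim1 and Orai1) were higher in CKOs as deposited and 0 lower, beside 18.1% and 1.76% of all genes. After scaling, 0 were higher and 2 (Jph1 and Jsrp1) were lower, beside 6.62% and 7.44% of all genes. As deposited, the groups overlapped in all 10 genes, whereas 2.23% of all genes had every CKO above every control and 0.189% every CKO below. After scaling those shares were 0.788% and 0.74%, and Jsrp1 was among the latter. Which genes stood out therefore depended on the scale, and the sign of 6 of the others turned with it. Unless another test is named, p-values are those of limma, with Benjamini-Hochberg adjustment over all 12695 genes.

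Junctophilin 1, the main junctophilin of skeletal muscle, is encoded by Jph1 (GRCm38 chromosome 1, 16964560 to 17097889, minus strand). Its control values ran from 40.7 through a median of 45.9 to 51.7 FPKM, and its CKO values from 33.3 through 42.0 to 48.4. The groups overlapped, and CKO 2 and CKO 6 lay below every control. The log2 difference was -0.14 ± 0.11 (SE) as deposited (unadjusted p = 0.214, adjusted p = 0.472). After scaling, the controls ran from 40.7 to 52.4 with a median of 49.2 and the CKOs from 32.4 to 46.6 with a median of 37.7, so that 4 of 6 CKOs lay below every control. The scaled difference was -0.33 ± 0.10 (95% interval -0.55 to -0.11), with an unadjusted p of 0.00659 that did not hold after adjustment (adjusted p = 0.148). The two-sided exact permutation test of the scaled values gave p = 0.013. Without control 1 it was -0.37 (adjusted p = 0.0632), and without CKO 1, CKO 3 and CKO 6 it was -0.25 (adjusted p = 0.746). Exons of Jph1 overlap with Gm28376 on the other strand, and reads from the pair cannot be told apart here, since the use of strand is not given.

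Jph2 (GRCm38 chromosome 2, 163336242 to 163397993, minus strand) encodes junctophilin 2, the junctophilin that the heart also uses. Its control values were tight, from 18.0 through 19.3 to 21.5 FPKM. The CKO values lay on both sides of them, from 13.8 through 22.8 to 26.4 FPKM, with CKO 1 and CKO 2 below every control and CKO 3, CKO 4 and CKO 5 above. The coefficient of variation was 8.65% in controls and 25.0% in CKOs. After scaling it was 12.4% and 26.1%. The log2 difference was 0.07 ± 0.15 as deposited (adjusted p = 0.811) and -0.11 ± 0.16 after scaling (adjusted p = 0.824), with a 95% interval of -0.45 to 0.23 in the latter.

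The ratio of the pair within a mouse does not depend on the scale of the library. Jph1 over Jph2 lay between 2.22 and 2.48 in the 6 controls, with a median of 2.32. In CKOs it ran from 1.71 to 2.66 with a median of 1.86. CKO 3, CKO 4, CKO 5 and CKO 6 lay below every control, CKO 2 within their range and CKO 1 above it. The log2 difference of the ratio was -0.21, which did not pass (two-sided exact permutation test, p = 0.0714, adjusted over 5 pairs p = 0.357).

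Triadin, the product of Trdn (GRCm38 chromosome 10, 33080554 to 33476709, plus strand), anchors calsequestrin to the ryanodine receptor. Its control values ran from 138 through 177 to 196 FPKM and its CKO values from 146 through 171 to 232. The CKO range covered nearly all of the control range, with CKO 4 alone above it. The log2 difference was 0.06 ± 0.13 as deposited (adjusted p = 0.824) and -0.13 ± 0.11 after scaling (adjusted p = 0.671). After scaling, 4 of 6 CKOs lay below every control while CKO 4, at 224 FPKM, lay above every control. Without CKO 4 the difference was -0.02 as deposited (adjusted p = 0.933) and -0.22 after scaling (unadjusted p = 0.0276, adjusted p = 0.292).

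Asph (GRCm38 chromosome 4, 9448069 to 9669344, minus strand) gives rise to junctin, which resembles triadin in the junctional SR, and also to an aspartyl hydroxylase and to junctate. A single value per gene cannot separate these products, and its exons overlap Clvs1 and Gm25677 on the other strand. Control values ran from 52.8 through 55.4 to 85.6 FPKM and CKO values from 46.7 through 60.7 to 84.9. Control 1 and control 3, at 72.7 FPKM, lay above the other 4 controls, which ended at 55.9, and CKO 6 was the highest CKO. The groups overlapped across most of their ranges. The means were 62.6 FPKM in both groups, and the log2 difference was 0.00 ± 0.15 as deposited (95% interval -0.32 to 0.33, adjusted p = 0.994). After scaling it was -0.18 ± 0.12 (adjusted p = 0.529). Without CKO 1, CKO 3 and CKO 6 it was -0.20 as deposited (adjusted p = 0.757) and -0.35 after scaling (unadjusted p = 0.0132, adjusted p = 0.539).

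JP-45, encoded by Jsrp1 (GRCm38 chromosome 10, 80808496 to 80813498, minus strand), links the voltage sensor to calsequestrin. As deposited, control values ran from 29.5 through 30.8 to 38.3 FPKM and CKO values from 26.1 through 32.1 to 34.9. The groups overlapped broadly and the log2 difference was -0.02 ± 0.10 (adjusted p = 0.914). After scaling the picture was different. The controls drew together between 32.4 and 34.9 FPKM with a median of 33.8, and the CKOs ran from 25.3 to 32.2 with a median of 30.2. All 6 CKOs then lay below all 6 controls, as in 0.74% of tested genes. The scaled means were 33.6 ± 1.08 and 29.1 ± 2.66 FPKM (SD, n = 6 each). The scaled log2 difference was -0.21 ± 0.08 (95% interval -0.37 to -0.05, unadjusted p = 0.0141, adjusted p = 0.210), and the exact permutation test gave p = 0.00217, the smallest that 6 against 6 allow. Leaving out any single library kept the scaled difference between -0.24 and -0.17, with adjusted p between 0.113 and 0.353. Without CKO 1, CKO 3 and CKO 6 it was also -0.21, with an unadjusted p of 0.0551. Without control 1 the difference as deposited was 0.03 (adjusted p = 0.855).

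Sypl2 (GRCm38 chromosome 3, 108211472 to 108226648, minus strand) encodes mitsugumin-29, a membrane protein of the triad that shapes the transverse tubule. Control values ran from 25.1 through 28.1 to 34.1 FPKM and CKO values from 26.3 through 30.7 to 32.4. Every CKO lay inside the control range. CKOs differed by 0.08 ± 0.09 on the log2 scale as deposited (adjusted p = 0.652) and -0.11 ± 0.12 after scaling (adjusted p = 0.756).

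The ratios among the junctional anchors overlapped between the groups. Trdn over Asph ran from 2.21 to 3.30 in controls and from 2.18 to 4.97 in CKOs, with a log2 difference of 0.05 (exact permutation p = 0.831, adjusted p = 0.831). Trdn over Jsrp1 ran from 4.68 to 5.92 in controls and from 4.76 to 7.38 in CKOs, with a log2 difference of 0.08 (exact permutation p = 0.498, adjusted p = 0.831). The highest value of either ratio came from CKO 4.

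In the lumen of the SR, Hrc (GRCm38 chromosome 7, 45335290 to 45338974, plus strand) encodes the histidine-rich calcium-binding protein, which binds triadin and the calcium pump. Control values ran from 134 through 140.1 to 156 FPKM and CKO values from 126 through 150.3 to 187. CKO 1 and CKO 4 lay above every control and CKO 2 below. On the log2 scale the difference was 0.11 ± 0.10 as deposited (adjusted p = 0.578) and -0.08 ± 0.11 after scaling (adjusted p = 0.815). Without CKO 4 it was 0.05 (adjusted p = 0.814) and -0.15 (adjusted p = 0.565).

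Sarcalumenin, a calcium-binding glycoprotein of the longitudinal SR, is encoded by Srl (GRCm38 chromosome 16, 4480216 to 4541816, minus strand). Control values ran from 111 through 141 to 154 FPKM and CKO values from 139.6 through 147 to 178. Only CKO 1 and CKO 5 lay above every control, and none lay below. CKOs differed by 0.14 ± 0.11 on the log2 scale as deposited (adjusted p = 0.458) and -0.05 ± 0.08 after scaling (adjusted p = 0.866). Hrc over Srl within a mouse was 0.876 to 1.23 in controls and 0.893 to 1.34 in CKOs (log2 difference -0.04, exact permutation p = 0.742, adjusted p = 0.831).

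Stim1 (GRCm38 chromosome 7, 102267806 to 102437319, plus strand) had the smallest p of the 10 genes as deposited. Control values were tight, from 12.9 through 14.0 to 14.9 FPKM. CKO values ran from 14.8 through 19.4 to 21.3 FPKM. CKO 1, CKO 3, CKO 4, CKO 5 and CKO 6 lay above every control, and CKO 2 lay just below the highest control. The means were 13.9 ± 0.685 and 18.5 ± 2.62 FPKM (SD, n = 6 each). The log2 difference was 0.39 ± 0.10 (95% interval 0.17 to 0.61, 1.31-fold), with an unadjusted p of 0.00164 and an adjusted p of 0.0595. The exact permutation test gave p = 0.00433. Relative to the median of all genes the difference was 0.22, larger than that of 81.2% of tested genes.

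The call for Stim1 depended on the scale and on single libraries. After scaling, control values ran from 12.2 to 17.4 with a median of 14.8 and CKO values from 14.4 to 19.4 with a median of 17.8, so that only 3 of 6 CKOs lay above every control. The scaled difference was 0.20 ± 0.11 (95% interval -0.02 to 0.43, unadjusted p = 0.0726, adjusted p = 0.410). As deposited, the adjusted p was 0.0370 without control 1, 0.0245 without CKO 2 and 0.0355 without CKO 5, and above 0.05 without any other single library. In those 3 fits 8.56%, 2.4% and 2.53% of all genes were called higher. It was 0.0499 with a filter at 1 FPKM (3.49% of genes called higher) and 0.00839 with sample weights (11.0%). Without CKO 1, CKO 3 and CKO 6, which had the high slow-twitch markers, the difference was 0.26 (adjusted p = 0.615) as deposited and 0.11 (adjusted p = 0.931) after scaling.

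Orai1 (GRCm38 chromosome 5, 123015074 to 123030456, plus strand), which encodes the pore that STIM1 opens, was the least abundant of the 10. Control values ran from 1.06 through 1.67 to 2.27 FPKM and CKO values from 1.92 through 2.12 to 2.79. The lowest CKO lay above 5 of 6 controls, and CKO 2 and CKO 3 lay above every control. The means were 1.65 ± 0.401 and 2.28 ± 0.378 FPKM (SD, n = 6 each). The log2 difference was 0.46 ± 0.17 (95% interval 0.10 to 0.81, 1.37-fold, unadjusted p = 0.0146, adjusted p = 0.151, exact permutation p = 0.0217). After scaling it was 0.28 ± 0.15 (95% interval -0.04 to 0.60, adjusted p = 0.439). Sample weights gave an adjusted p of 0.0494. Leaving out control 1, the highest control, gave 0.55 with an adjusted p of 0.0409 as deposited, and 0.33 with an adjusted p of 0.287 after scaling. Without CKO 1, CKO 3 and CKO 6 the deposited difference was 0.43 (adjusted p = 0.633). Exons of Orai1 overlap Gm2479 on the other strand.

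The sensor and the channel showed no clear relation from mouse to mouse. Stim1 was lowest among CKOs in CKO 2, the mouse in which Orai1 was highest. Stim1 over Orai1 ran from 5.75 to 13.0 in controls and from 5.17 to 10.1 in CKOs, with a log2 difference of -0.07 (exact permutation p = 0.779, adjusted p = 0.831). Over the 12 libraries, after scaling, the correlation of their log2 values was r = -0.08. With 12 values and both groups pooled, this r is loosely fixed and does not exclude a moderate relation.

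**Figure D2:**
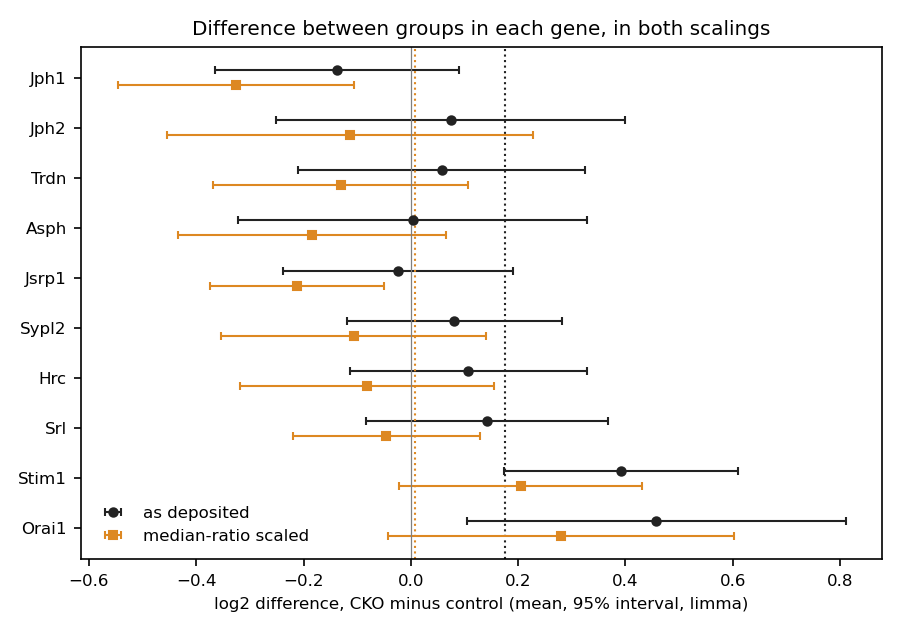
Log2 difference, CKO minus control, of the 10 genes with its 95% interval from limma, as deposited (black circles) and after median-ratio scaling (orange squares). Dotted lines mark the median of all tested genes in each scale, 0.18 and 0.01. As deposited the intervals of Stim1 and Orai1 lie above 0, and after scaling those of Jph1 and Jsrp1 lie below 0.

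**Figure D3:**
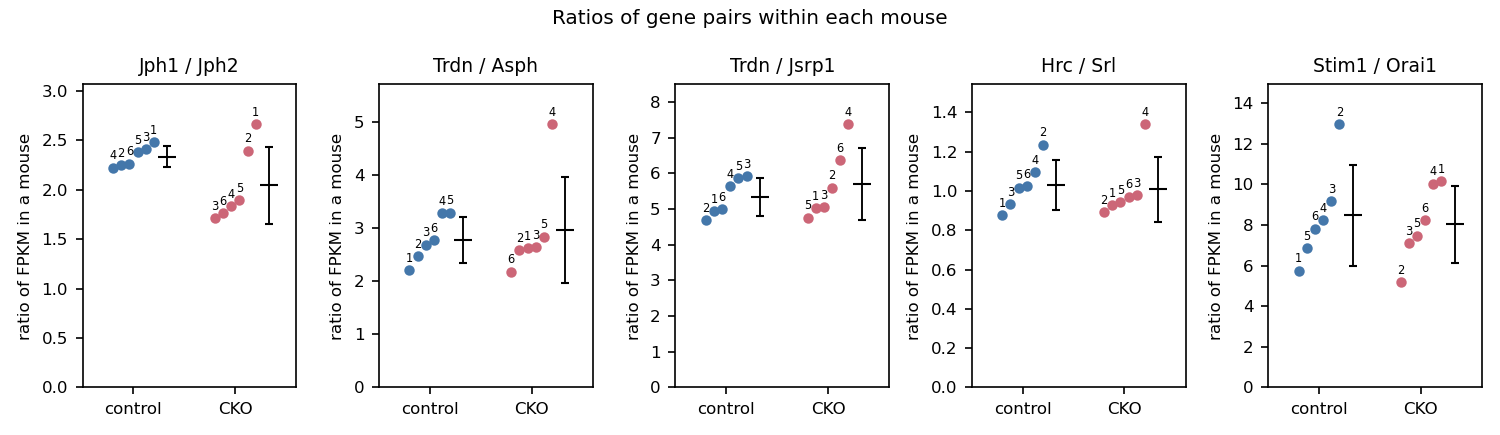
Ratio of FPKM between 5 gene pairs within each mouse, with controls in blue, CKOs in red, the replicate number beside each point and the mean ± SD (n = 6). Jph1 over Jph2 lies between 2.22 and 2.48 in controls and spreads from 1.71 to 2.66 in CKOs, and CKO 4 gives the highest Trdn over Asph, Trdn over Jsrp1 and Hrc over Srl.

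Among the 10 genes themselves, the scaled log2 values varied together most closely for Jph1 and Jsrp1 (Pearson r = 0.83 over 12 libraries). Jph1 also followed Hrc and Jph2 (r = 0.72 for each) and Trdn (r = 0.62), and Hrc followed Trdn and Jph2 (r = 0.64 for each). Orai1 ran opposite to Jph1 (r = -0.61) and Jsrp1 (r = -0.60). The highest r of Asph with any of the others was 0.12, with Jsrp1. The points share their library and its scaling factor, and both groups are pooled, so these values are descriptive. The tested genes whose pattern over the 12 libraries was most like each gene were Dym for Jph1 (r = 0.97), 0610030E20Rik for Jph2 (r = 0.95), Setbp1 for Trdn (r = 0.95), Scnm1 for Asph (r = 0.91) and Psmd2 for Jsrp1 (r = 0.96). They were Cluh for Sypl2 (r = 0.90), Hdlbp for Hrc (r = 0.94), Ctbp2 for Srl (r = 0.87), Myh14 for Stim1 (r = 0.91) and Trim56 for Orai1 (r = 0.92). The second in each case were Abcb4, Nr2c2, Fam21, Lca5, Txnip, Arhgef7, Xpr1, Sp110, Hip1 and Rpl13, with r between 0.85 and 0.96. These are the highest r among all tested genes over only 12 libraries, so high values can arise from the selection alone. Shared regulation was not tested, and Lca5 and Sp110 were low in controls (0.285 and 0.283 FPKM).

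The genes that work with these 10 were counted in 5 lists of 44 genes, of which 39 could be tested. As deposited, 16 of 39 were higher at an unadjusted p below 0.05 and 0 lower, and 5 were higher at an adjusted p below 0.05. After scaling, 8 were higher and 5 lower unadjusted, and 1 was higher adjusted. The shares called among all genes in both scales are those given above for the 10. Without CKO 1, CKO 3 and CKO 6, 855 of the 12176 genes tested in that fit were higher unadjusted.

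Of the voltage sensor and release channel, the partners that junctophilins and JP-45 hold at the junction, 5 of 7 tested genes were higher as deposited (unadjusted), 2 after scaling, and 2 as deposited without CKO 1, CKO 3 and CKO 6. The subunits Cacnb1 (log2 difference 0.47, adjusted p = 0.0323) and Cacng1 (0.51, adjusted p = 0.0433) passed adjustment, and neither did after scaling (0.28, adjusted p = 0.211, and 0.32, adjusted p = 0.144). Set against the pore subunit Cacna1s within each mouse, Jph1 stood at 0.691 to 1.003 in controls with a median of 0.783, and at 0.469 to 0.699 in CKOs with a median of 0.536. For this ratio, 5 of 6 CKOs lay below every control. Jsrp1 over Cacna1s ran from 0.465 to 0.846 in controls and from 0.365 to 0.504 in CKOs, with 4 of 6 CKOs below every control. Trdn over Ryr1, 1.23 to 3.20 in controls and 1.295 to 1.76 in CKOs, overlapped in all CKOs. These partners were chosen after the values were seen, and the ratios carry no test. Cacna1s itself was higher in CKOs as deposited (0.40, unadjusted p = 0.00865, adjusted p = 0.124), with 5 of 6 CKOs above every control. After scaling its difference was 0.21 (adjusted p = 0.574). As deposited, the differences of Jph1 (-0.14) and Jsrp1 (-0.02) were smaller in size than that of Cacna1s. After scaling they were -0.33 and -0.21, at least as large as that of Cacna1s. Which gene of a ratio moved more therefore depended on the scale, although the ratio itself does not.

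Of the SR pumps, stores and counter-ion channels, 4 of 8 were higher as deposited (unadjusted), 2 after scaling, and 2 as deposited without CKO 1, CKO 3 and CKO 6. Sln, which encodes the pump inhibitor sarcolipin, passed adjustment in both scales (log2 difference 3.95, adjusted p = 0.0173, and 3.78, adjusted p = 0.0236). Its values ran from 0.328 to 5.69 FPKM in controls and from 1.81 to 59.9 in CKOs, highest in CKO 1, CKO 3 and CKO 6, and without these it did not pass (2.49, adjusted p = 0.386). Hrc over Atp2a1, the fast-fiber pump, was 0.0983 to 0.129 in controls and 0.114 to 0.141 in CKOs, with 1 CKO above every control.

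Of the other store-operated entry genes, 1 of 8 was higher as deposited (unadjusted), and 0 after scaling or without CKO 1, CKO 3 and CKO 6. This was Tmem110, which encodes an SR protein that promotes the STIM1 response (0.57, adjusted p = 0.137, and 0.40 after scaling, adjusted p = 0.374). Without those CKOs its difference as deposited was 0.38 (unadjusted p = 0.12). Saraf, which encodes a brake on STIM1, had the next smallest p as deposited (0.23, adjusted p = 0.365, and 0.05 after scaling, adjusted p = 0.893). After scaling, 1 of 8 was lower (unadjusted). This was Stim2, the second sensor (-0.41, adjusted p = 0.1502, and -0.22 as deposited, adjusted p = 0.375), named after its value was seen. Without CKO 1, CKO 3 and CKO 6 its scaled difference was -0.29 (unadjusted p = 0.0909). Stim1 over Stim2 within a mouse ran from 2.30 to 3.60 in controls with a median of 2.62, and from 2.77 to 5.81 in CKOs with a median of 4.196. For this ratio, also chosen after the values were seen and not tested, 5 of 6 CKOs lay above every control.

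Of the transverse tubule and triad membrane genes, 5 of 10 were higher as deposited (unadjusted), 3 were higher and 1 lower after scaling, and 3 were higher as deposited without CKO 1, CKO 3 and CKO 6. Dnm2, which encodes the membrane-cutting dynamin 2 (0.44, adjusted p = 0.0460), and Dysf, which encodes the repair protein dysferlin (0.45, adjusted p = 0.0477), passed adjustment. Neither passed after scaling (0.26, adjusted p = 0.217, and 0.26, adjusted p = 0.391). The gene lower after scaling was Ptpla, named after its value was seen (-0.47, unadjusted p = 0.00464, adjusted p = 0.1265, and -0.29 as deposited, adjusted p = 0.3405). By real-time PCR in this muscle, the paper found Ptpla reduced, Ryr1 raised, and Bin1, Dnm2, Mtm1 and Mtmr14 unchanged. Here Ryr1 differed by 0.20 as deposited (adjusted p = 0.557) and by 0.01 after scaling (adjusted p = 0.985). As deposited, Bin1 (0.37, unadjusted p = 0.00506, adjusted p = 0.0976) and Mtm1 (0.52, unadjusted p = 0.00566, adjusted p = 0.1045) were higher only unadjusted. Mtmr14 differed by 0.13 (adjusted p = 0.663). With only 3 CKOs left, without CKO 1, CKO 3 and CKO 6, the differences as deposited were 0.36 in Dnm2, 0.38 in Dysf, 0.40 in Cacnb1 and 0.42 in Cacng1. None of these passed in that fit (adjusted p between 0.408 and 0.545), where 0.0329% of all genes were called higher.

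Of the anchors between SR, myofibril and membrane, 1 of 6 was higher and 0 lower as deposited, and 1 was higher and 3 lower after scaling (unadjusted), and none passed adjustment in either. The smallest p as deposited were those of Ahnak (0.42, adjusted p = 0.0649, and 0.23 after scaling, adjusted p = 0.261) and Homer1 (-0.24, adjusted p = 0.380, and -0.43 after scaling, unadjusted p = 0.00456, adjusted p = 0.126). As deposited, Ahnak passed without control 1 (adjusted p = 0.0152) and with sample weights (adjusted p = 0.00983). In these fits 8.56% and 11.0% of all genes were called higher, and Bin1, Mtm1, Trim72 and Stac3 of the other lists also passed in both. The median log2 difference of this list, -0.09 as deposited and -0.28 after scaling, lay below that of the 10 genes. The other 4 lists had medians of 0.35, 0.32, 0.19 and 0.34 as deposited, in the order above, and of 0.17, 0.13, 0.02 and 0.15 after scaling.

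**Figure D4:**
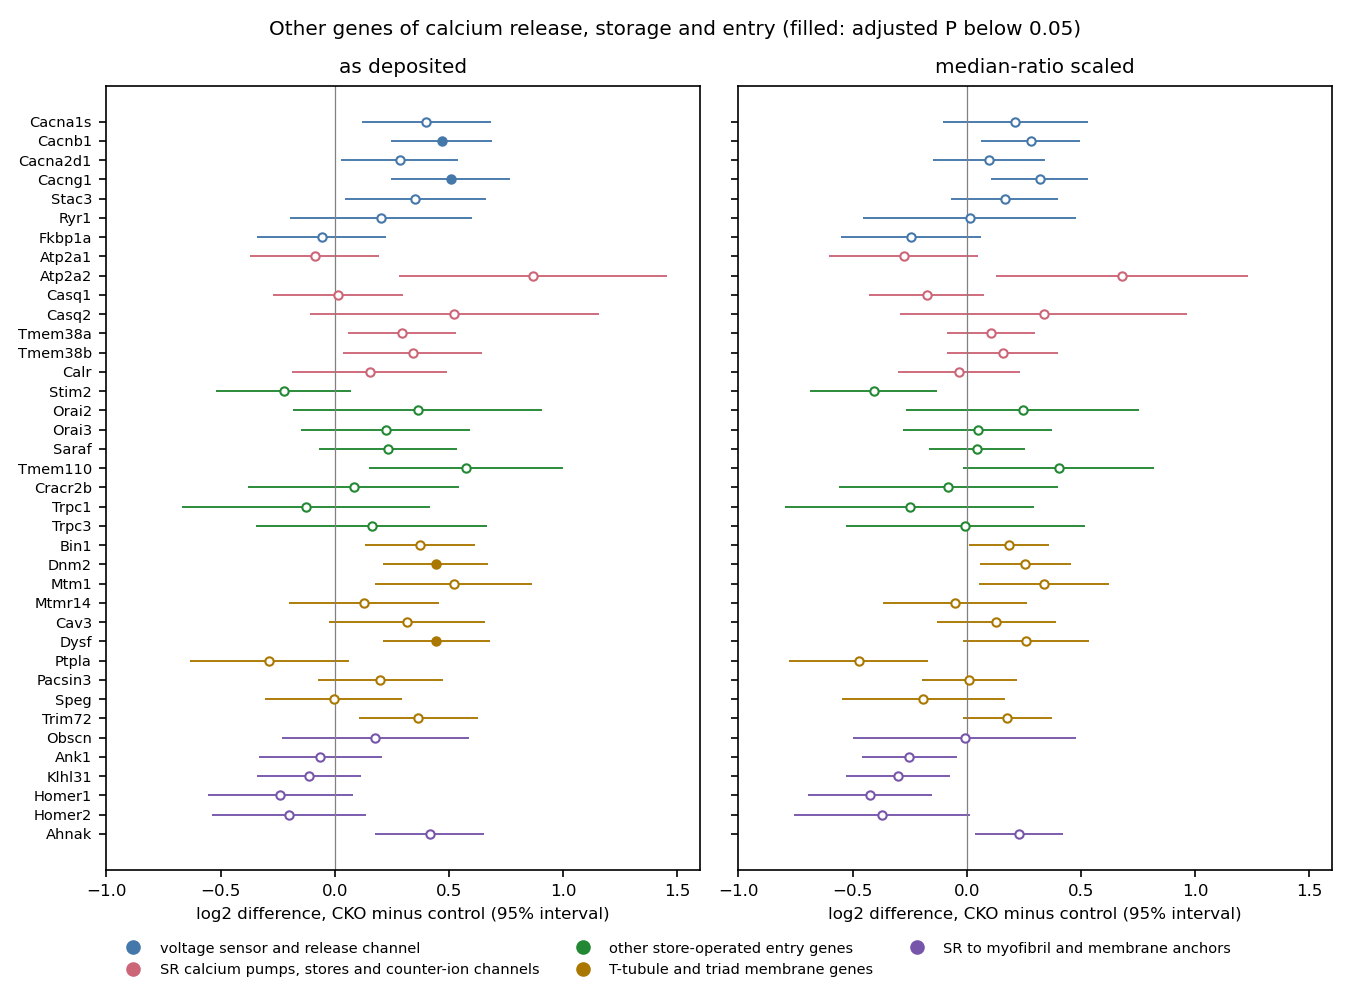
Log2 difference, CKO minus control, with 95% intervals from limma, of 38 of the 39 tested genes of the 5 related lists, as deposited (left) and after median-ratio scaling (right), coloured by list. Filled points passed an adjusted p below 0.05. Sln, at 3.95 and 3.78, lies beyond the axis and is left out. As deposited Cacnb1, Cacng1, Dnm2 and Dysf are filled, and after scaling none of the genes shown is.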

How the data were processed

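Total RNA of the tibialis anterior was depleted of ribosomal RNA and sequenced, with 1 library for each of 12 mice. The authors trimmed adapters, aligned reads with at most 2 mismatches, removed reads with more than 1 place in the genome and then computed the deposited FPKM, 1 value per gene symbol. The submitters' processing notes name TopHat2 2.0.10, Cufflinks 2.1.1 and the build mm9. The annotation and the use of strand are not given in the sources used here. The authors tested read counts with DESeq, and those counts were not analysed here.

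Each file held 23950 rows, of which 27 carried a date in place of a symbol and were left out. Groups and replicate numbers came from the sample labels, and replicates are separate mice. Controls and CKOs were compared with limma 3.58.1 in R 4.3.3 (intensity trend, no block) on log2(FPKM + 0.1), keeping genes that reached 0.1 FPKM in 6 or more libraries, and differences are on this scale. The Benjamini-Hochberg adjustment covered 12695 genes. Median-ratio scaling used the 12178 genes above 0 in every library. Ratios were compared by two-sided exact permutation tests (scipy 1.17.1). The code was tested on simulated data.

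The 10 genes and the lists were chosen with earlier results of these data known. The text names every one of the 10, from each related list the genes past an adjusted p of 0.05 in either scale and otherwise the 2 with the smallest p as deposited, the 2 genes most like each of the 10, and Smyd1. Other genes of the lists were named after their values were seen, for ratios, alternative fits or beside the paper's own result. Alternatives were other pseudocounts, filters and scalings, the replicate block, sample weights, no trend, and libraries left out. Leaving out each library with scaling was added after the data were seen. Positions were taken by symbol from GENCODE M21 (GRCm38), which held 95.2% of the symbols.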

Additional observations from a re-analysis of the deposited data

Results flagged for a closer look

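In 4 of 50 groups of 6 values examined, a single mouse lay far from the other 5 by Dixon's test, which chance gives in about 1 group in 20. All 4 were the highest value of CKO 4. After median-ratio scaling, Trdn was 223.9 FPKM in CKO 4 and 142 to 168 in the other CKOs. Scaled Hrc was 180.6 FPKM in CKO 4 and 123 to 144 in the others. The ratio of Trdn to Asph was 4.965 in CKO 4 and 2.18 to 2.84 in the others, and that of Hrc to Srl was 1.341 in CKO 4 and 0.893 to 0.980 in the others. CKO 4 also had the lowest Asph of the 12 libraries as deposited, 46.7 FPKM.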

How the results depend on the processing

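Scaling turned the most signs, whereas sample weights and libraries left out moved the most adjusted calls. With median-ratio scaling, alone, with the replicate block or under an exact permutation test, the log2 difference turned to -0.11 in Jph2, -0.13 in Trdn, -0.18 in Asph, -0.11 in Sypl2, -0.081 in Hrc and -0.046 in Srl, and with quantile normalization to -0.044 in Jph2, -0.041 in Asph and -0.022 in Sypl2. None of these was called in either scale. Scaling and quantile normalization remove a shift shared by a whole library by construction. At an unadjusted p below 0.05, scaling left 0 of the 10 genes higher and 2 lower, and quantile normalization left 1 higher. Over all genes, scaling gave 841 higher and 944 lower unadjusted, and 97 and 90 adjusted. Quantile normalization gave 813, 825, 101 and 66 in the same order, against 2300, 224, 257 and 34 as deposited.

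Samples with the same replicate number were treated as unpaired. The correlation of their deviations ran from -0.0861 to 0.164 and was over 0.1 in 2 of 6 pairs, and 2 of 6 controls correlated best with their own number. Such correlations cannot show whether mice of the same number shared a litter or were processed together. With the replicate block the adjusted p was 0.0741 for Stim1 and 0.205 for Orai1, and the block moved the unadjusted count of other store-operated entry genes higher from 1 to 2. At the same log2 differences, Dnm2 and Dysf missed the threshold under it (adjusted p = 0.0503 and 0.0643) and Ahnak passed (adjusted p = 0.0478). The block with scaling left 0 of the 10 genes higher and 2 lower, and 855 genes higher and 947 lower overall (91 and 83 adjusted).

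Without CKO 1, CKO 3 and CKO 6, 0 of the 10 genes were higher, Asph turned to -0.20 and Hrc over Srl to 0.024. Overall 855 genes were higher unadjusted, and 4 were higher and 3 lower adjusted, with fewer samples in the fit. With scaling as well, Jph2 was -0.043, Trdn -0.081, Asph -0.35, Sypl2 -0.089, Hrc -0.023 and Srl -0.047, with 0 of the 10 higher and 1 lower, and 387 genes higher and 468 lower overall (4 and 4 adjusted). Sample weights called 2 of the 10 higher adjusted, turned Jsrp1 to 0.025 and called 3704 genes higher unadjusted, and 1400 higher and 115 lower adjusted. A filter at 1 FPKM called 1 of the 10, and no filter gave 133 higher and 12 lower adjusted overall. A pseudocount of 1 turned Stim1 over Orai1 to 0.061.

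In the related lists, the unadjusted count of voltage sensor genes higher (5 as deposited) was 2 with scaling, with or without the block, 3 with quantile normalization, 2 without the 3 CKOs and 1 without them with scaling. For SR pumps and stores (4) it was 2 with scaling, 2 without the 3 CKOs and 1 with both. For other store-operated entry genes (1) it was 0 with either scaling, a filter at 1 FPKM or the 3 CKOs left out, and 2 with no filter or sample weights, and 1 was lower with either scaling. For tubule genes (5) it was 3 with scaling, 2 with the block and scaling, 3 without the 3 CKOs and 1 with both, and 1 was lower with either scaling or sample weights. Of the anchors, 3 were lower with scaling, 4 with the block and scaling, 2 with quantile normalization and 3 without the 3 CKOs with scaling, where 0 were higher. The counts of all genes higher with scaling, quantile normalization, sample weights or the 3 CKOs left out are those given above.

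Leaving out each library in turn, the log2 difference ran from 0.35 to 0.45 for Stim1, 0.34 to 0.55 for Orai1, -0.021 to 0.11 for Trdn, -0.089 to 0.099 for Asph and -0.055 to 0.029 for Jsrp1, and the other 5 kept their sign. Trdn over Asph ran from -0.10 to 0.13, Hrc over Srl from -0.12 to 0.019 and Stim1 over Orai1 from -0.17 to 0.067. Between 0 and 2 of the 10 genes were called higher adjusted. Overall 88 to 1075 genes were called higher, the most without control 1, and 18 to 69 lower. The unadjusted counts ran from 3 to 5 voltage sensor genes higher, from 1 to 2 other store-operated entry genes higher and 0 to 1 lower, and from 0 to 1 tubule gene lower. Among all genes the unadjusted counts ran from 1724 to 3416 higher and from 193 to 320 lower. The causes were not tested. With no read counts the error of a single value is unknown, which weighs most on Orai1, the lowest of the 10.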
